A study of Macaca mulatta with 24 samples.

Results

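This account describes 39 listed target genes of the transcription factor p53 in the jejunum of rhesus macaques (Macaca mulatta) after total-body irradiation (TBI). Members were taken as every probe whose gene symbol in the authors' table of normalized jejunum signals was on the list. Of the 39 genes, 28 had a probe, with 39 probes among the 43603 on the array. TNFRSF10B, RRM2B, AEN, PHLDA3, POLH, CCNG2, BBC3, TRIAP1, ASCC3, IER5 and STEAP3 had none under these symbols and were left out. One more, SPATA18, was above background on 3 of 24 arrays and was not tested. The remaining 27 genes were tested with 37 probes, and 21 of the 27 were measured above background on all 24 arrays.

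The study exposed young-adult male macaques to 1 uniform dose of cobalt-60 gamma radiation, 6.7 Gy or 7.4 Gy, or to sham irradiation. RNA from a piece of jejunum of about 3 cm was hybridized without pooling, 1 sample per array. The control group held 4 sham-irradiated animals, all labelled day 4. Each dose had 4 arrays on days 4 and 7 and 2 arrays on day 12. A protocol note in the labels gives the last time as 21 days, whereas the sample titles, the day labels and the methods give day 12, which is used here. All the later days are therefore set against controls of day 4, and 2 arrays per dose make the day 12 values the least precise.

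The p53 protein is a transcription factor that is held at a low level by MDM2 and is stabilized when DNA is broken. It then binds the regulatory regions of genes that stop the cell cycle, repair DNA, kill the cell or limit p53 itself. In the small intestine the dividing cells at the crypt base are known for a rapid p53-dependent response to ionizing radiation. Because bulk tissue was measured, fewer cells of a type and less RNA per cell cannot be told apart.

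Each level is log2 of the background-corrected signal minus log2 of the 75th percentile of its array, so a level of 0 is that percentile and levels of different probes are not comparable. A change is the difference of group means on this log2 scale. A gene was called at an adjusted p under 0.05 in limma when its change also reached 2-fold, which are the limits of the study's methods. Where a gene had several probes, the brightest tested probe stood for it. The arrays ranged from 17158 to 38226 probes above background. The 8 arrays of slides 4 and 5 detected the fewest, with a lowest signal above background of 40.6 to 275 against 7.03 to 31.8 on the other slides. Control replicate 4 lay on slide 4. The tissue label was checked against 11 absorptive enterocyte markers with a probe, of which 10 were above background on all 24 arrays.

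On day 4, 9 member genes were up-regulated after 6.7-Gy TBI and 9 after 7.4-Gy TBI, and they were the same 9 genes: EDA2R, DDB2, ZMAT3, PLK2, DRAM1, FAS, BAX, CDKN1A and RPS27L. No member was called down (0.861% and 0.954% of symbols were). Of all 11846 gene symbols tested, 2.26% were called after 6.7-Gy TBI (1.4% up) and 2.95% after 7.4-Gy TBI (2% up). ZMAT3 and DRAM1 were tested only because irradiated groups lay above background, since control replicate 4 did not, and PLK2 was not above background on 1 array of day 12. Among the 21 members above background on all 24 arrays the other 6 genes were called after each dose, where 2.06% and 2.7% of the 7338 symbols measured that well were called. The comparisons of the 2 doses share the same 4 control arrays. The changes of the 27 members ran from -0.81 to 3.68 after 6.7-Gy TBI and from -0.80 to 3.82 after 7.4-Gy TBI. Among the 21 members above background on all arrays the median change was 0.27 and 0.26, against -0.04 and -0.06 over these 7338 symbols. The methods' t-test, adjusted and limited likewise, called 6 of the 9 after 6.7 Gy, without FAS, DRAM1 and RPS27L, and 8 after 7.4 Gy, without DRAM1. All controls lay at position 1 of their slides and all 7.4-Gy day 4 arrays at position 2. With position as a block only EDA2R and DDB2 were called after 7.4 Gy, while the changes of the other 7 genes ran from 1.23 to 2.33 (adjusted p = 0.0749 to 0.405, limma).

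**Figure D1:**
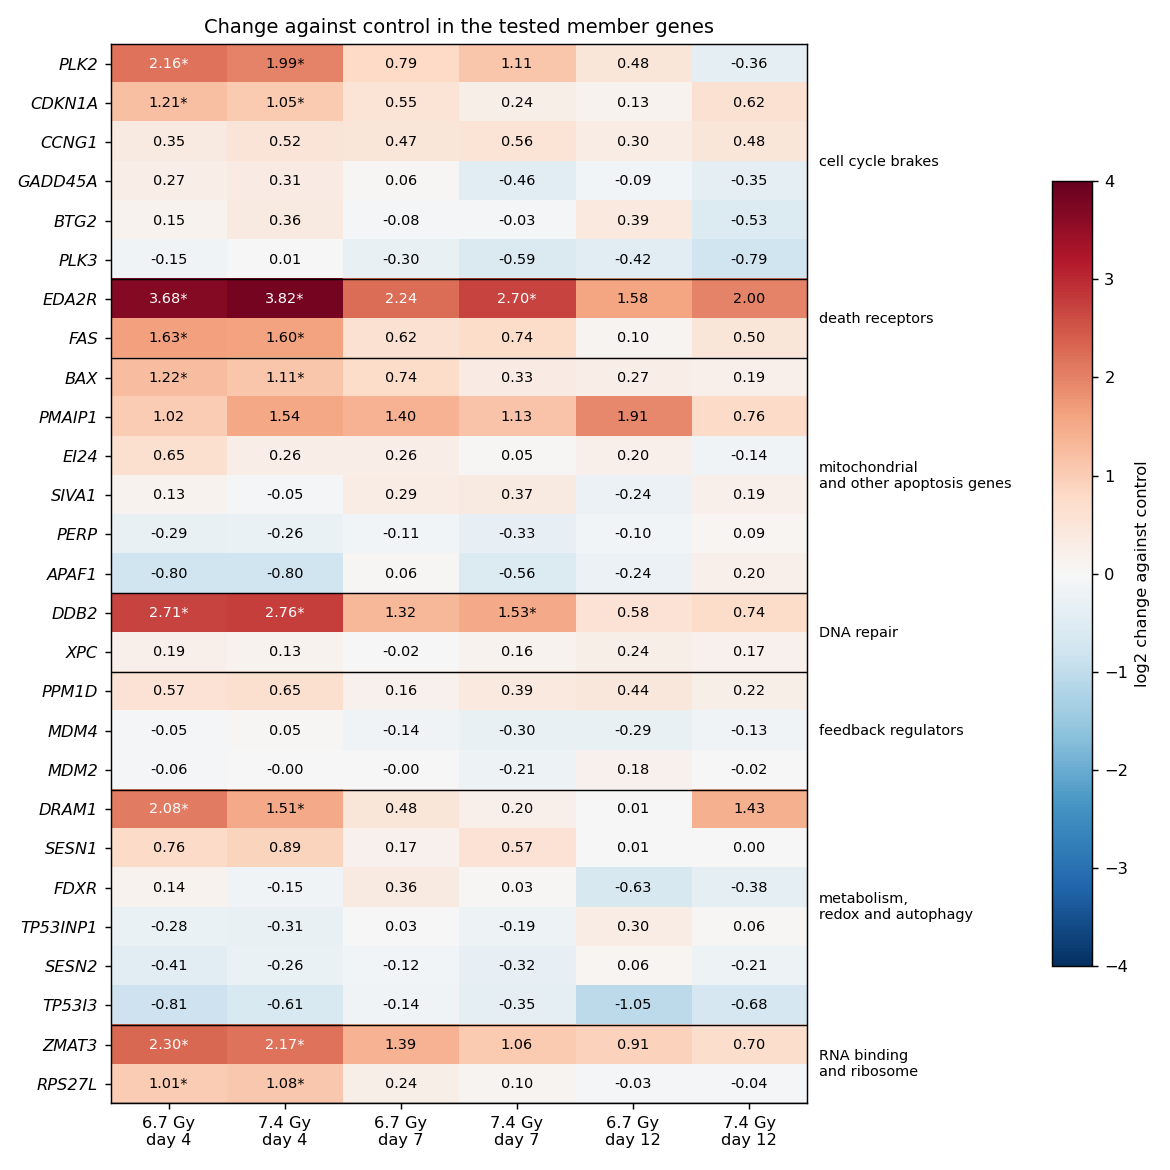
Mean log2 change against control for each of the 27 tested member genes (rows, grouped by role) in the 6 irradiated groups (columns), with the value printed in each cell and an asterisk where the gene was called. The asterisks lie in 9 genes on day 4 after either dose and in EDA2R and DDB2 on day 7 after 7.4 Gy.

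Among the death receptors on the list, both tested genes rose. EDA2R encodes a receptor of the tumor necrosis factor family that binds ectodysplasin A2, and it had the largest change of any member. Its level was -3.02, -2.84, -2.51 and -3.04 in the controls. On day 4 it was 0.77, 0.98, 1.14 and 0.44 after 6.7 Gy and 1.25, 0.57, 1.19 and 0.87 after 7.4 Gy, so that every irradiated array lay far above every control. The fitted changes were 3.68 ± 0.19 (SE; 12.9-fold, adjusted p = 0.00045, limma, n = 4 and 4) and 3.82 ± 0.20 (14.2-fold, adjusted p = 0.000346). The size depends on the dim control signals: with every signal raised to a common floor of -1.86, set by the array with the highest background, the changes were 2.69 and 2.83 and EDA2R was still called.

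FAS encodes the receptor for FAS ligand, which starts the extrinsic death pathway. Control levels were -2.41, -1.72, -1.71 and -2.54. After 6.7 Gy the day 4 levels were -0.38, -0.82, -0.12 and -0.57, and after 7.4 Gy they were -0.38, -0.39, -0.43 and -0.77. No irradiated array of day 4 overlapped the controls, although the controls themselves fell into a higher and a lower pair. The change was 1.63 ± 0.24 (adjusted p = 0.0151, limma) and 1.60 ± 0.23 (adjusted p = 0.0108). A dimmer FAS probe was called as well, with changes of 1.35 and 1.42.

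Of the 6 other apoptosis genes tested, BAX was called. BAX encodes a protein that opens the outer mitochondrial membrane. Its control levels of 1.60, 1.13, 1.43 and 1.37 compared with 2.80, 2.54, 2.69 and 2.41 on day 4 after 6.7 Gy and with 2.48, 2.40, 2.49 and 2.61 after 7.4 Gy. The groups did not overlap, and the spread within the 7.4-Gy group was small (SD 0.09, n = 4). The changes were 1.22 ± 0.15 and 1.11 ± 0.14 (adjusted p = 0.00862 and 0.00873, limma). The other BAX probes, both dimmer, gave 1.12 and 1.15 after 6.7 Gy and 1.00 and 1.03 after 7.4 Gy and were called too.

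PMAIP1, which encodes the BH3-only protein NOXA, was a dim probe whose level in the controls spread from -5.67 to -3.77. Its day 4 change of 1.02 ± 0.53 after 6.7 Gy and 1.54 ± 0.41 after 7.4 Gy did not pass the test (adjusted p = 0.302 and 0.063, limma). After 7.4 Gy it was called with slide as a fixed or random block, with scan day as a block, with all arrays in the fit and without control replicate 2. Control replicate 4 and 1 array of each day 4 group were not above background for it. APAF1, the scaffold of the apoptosome, was lower by the same amount in both groups, at -0.80 ± 0.24 (adjusted p = 0.102) and -0.80 ± 0.19 (adjusted p = 0.0485), under the 2-fold limit. It was called down after 6.7 Gy with slide as a fixed block and without the arrays of slides 4 and 5. EI24 (0.65 and 0.26), SIVA1 (0.13 and -0.05) and PERP (-0.29 and -0.26) were not called. A dimmer EI24 probe gave 0.67 and 0.84, the latter with an adjusted p of 0.0398 but under 2-fold. The differences between the changes of these genes and that of BAX were not tested.

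DDB2, which encodes the damage-recognition subunit of the UV-DDB complex of nucleotide excision repair, had the next largest change. The levels were 1.28, 1.21, 1.50 and 1.61 in the controls, 4.35, 4.27, 4.16 and 3.64 on day 4 after 6.7 Gy, and 4.07, 4.35, 3.96 and 4.26 after 7.4 Gy. No irradiated array of day 4 overlapped the controls, and the lowest, 6.7-Gy replicate 4, was still far above them. The change was 2.71 ± 0.19 (6.53-fold, adjusted p = 0.00123, limma) and 2.76 ± 0.15 (6.79-fold, adjusted p = 0.000346). A dimmer DDB2 probe gave 2.65 and 2.75. XPC, which recognizes damage in the same repair pathway, had changes of 0.19 ± 0.20 and 0.13 ± 0.21 (adjusted p = 0.622 and 0.756).

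Among the 6 tested genes that slow the cell cycle, PLK2 and CDKN1A rose. PLK2 encodes a polo-like kinase of the stress response. Its levels were -1.84, -1.74, -1.72 and -2.42 in the controls, 0.22, -0.09, 0.63 and 0.17 on day 4 after 6.7 Gy, and 0.54, 0.03, 0.23 and -0.56 after 7.4 Gy. All 8 irradiated arrays were above all controls. The change was 2.16 ± 0.21 (4.47-fold, adjusted p = 0.0033, limma) and 1.99 ± 0.26 (3.97-fold, adjusted p = 0.00924).

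CDKN1A encodes p21, the inhibitor of cyclin-dependent kinases through which p53 arrests cells in G1. It was already bright in unirradiated jejunum, at 3.28, 3.22, 2.91 and 3.37. On day 4 it stood at 4.57, 4.57, 4.50 and 3.98 after 6.7 Gy and at 4.34, 4.31, 4.47 and 3.85 after 7.4 Gy, with 1 lower array in each group that was still above the controls. The change was 1.21 ± 0.18 (2.31-fold, adjusted p = 0.0148, limma) and 1.05 ± 0.18 (2.07-fold, adjusted p = 0.0182). The 7.4-Gy call was lost without control replicate 2 (adjusted p = 0.0555), control replicate 3 (change 0.96), 7.4-Gy day 4 replicate 1 (adjusted p = 0.0510) or 7.4-Gy day 4 replicate 3 (change 0.97).

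The other cell cycle genes were not called on day 4. CCNG1, a cyclin that recruits phosphatase 2A to MDM2, had changes of 0.35 ± 0.31 and 0.52 ± 0.28. GADD45A (0.27 and 0.31), BTG2 (0.15 and 0.36) and PLK3 (-0.15 and 0.01) did not pass the test either. PLK3 is a polo-like kinase as PLK2 is, and the difference between their changes was not tested.

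None of the 3 feedback regulators was called by its brightest probe, and for MDM2 alone the result turned on the probe. MDM2 encodes the ubiquitin ligase that marks p53 for degradation, and the array carried 2 probes for it under 1 transcript accession. The brighter probe read 1.67, 1.60, 1.19 and 1.57 in the controls, 1.24, 1.70, 1.60 and 1.26 on day 4 after 6.7 Gy, and 1.65, 1.41, 1.52 and 1.44 after 7.4 Gy. These groups overlapped fully, with changes of -0.06 ± 0.17 and -0.00 ± 0.15 (adjusted p = 0.872 and 0.997, limma). The 95% intervals of these changes, -0.45 to 0.33 and -0.34 to 0.34, held no 2-fold difference.

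The dimmer MDM2 probe read -3.36, -3.43, -3.29 and -3.68 in the controls, the last of which was not above background. It read -1.72, -1.32, -1.30 and -1.29 on day 4 after 6.7 Gy and -1.24, -1.07, -1.19 and -1.04 after 7.4 Gy. The arrays of each group lay close together and the groups did not overlap. The change was 2.03 ± 0.16 (adjusted p = 0.00142, limma) and 2.31 ± 0.14 (adjusted p = 0.000346). This probe, like those of ZMAT3 and DRAM1, entered the test only through irradiated groups, and its control levels lay under the common floor of -1.86. On day 7 this probe was still 0.86 ± 0.14 above control after 6.7 Gy (adjusted p = 0.073) and was called after 7.4 Gy at 1.08 ± 0.17 (adjusted p = 0.0487). Where on the transcript each probe lies was not analysed here, so MDM2 counts as not called by the rule of the brightest probe and as called if any probe suffices.

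**Figure D2:**
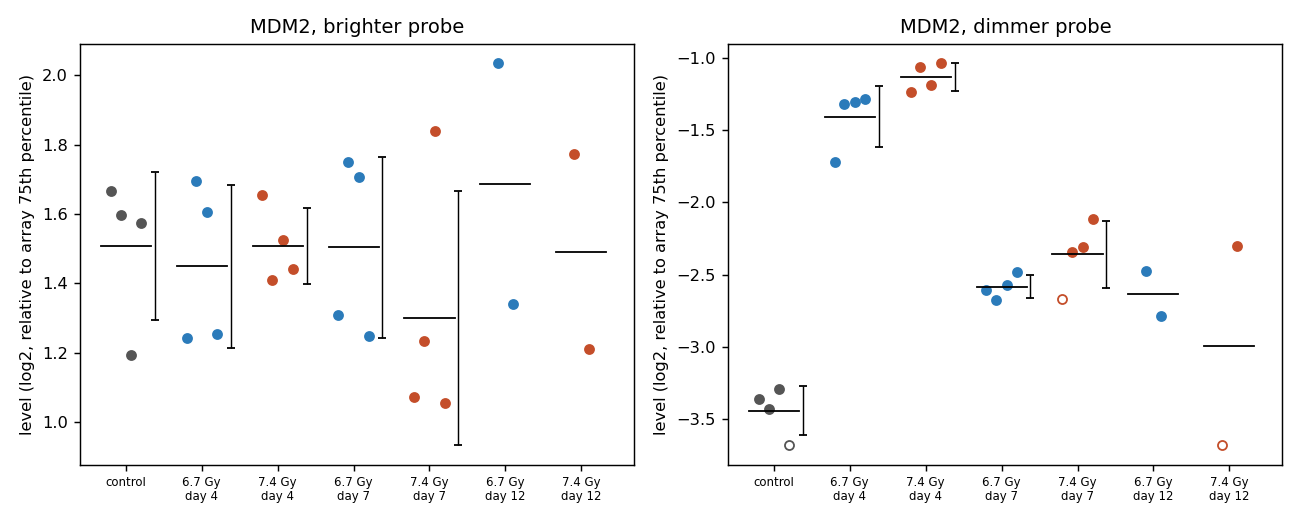
Levels of the 2 MDM2 probes (log2, relative to the array's 75th percentile) in every array of the 7 groups. Points are arrays (open where not above background), horizontal lines are group means and bars are SD in groups of 4. The brighter probe overlaps between control and day 4, whereas the dimmer probe rises from a mean of -3.44 to -1.41 and -1.13.

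MDM4, the relative of MDM2 that blocks the p53 activation domain, was measured with 4 tested probes, none of which was called on any day. Its brightest probe had day 4 changes of -0.05 ± 0.25 and 0.05 ± 0.22. PPM1D, the phosphatase WIP1 that removes phosphates set by the damage kinases, had 0.57 ± 0.18 (adjusted p = 0.121, limma) and 0.65 ± 0.16 (adjusted p = 0.0494), under 2-fold in both groups.

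Of 6 tested genes with roles in metabolism, redox balance and autophagy, DRAM1 was called. DRAM1 encodes a lysosomal membrane protein that promotes autophagy. Its levels were -4.19, -3.71, -3.95 and -4.59 in the controls, -1.06, -2.62, -1.92 and -2.51 on day 4 after 6.7 Gy, and -2.28, -2.79, -3.46 and -1.85 after 7.4 Gy. The irradiated arrays spread widely (SD 0.71 and 0.69, n = 4), and the lowest of them, 7.4-Gy replicate 3, was only just above the highest control. That array and control replicate 4 were not above background for DRAM1. The change was 2.08 ± 0.35 (adjusted p = 0.0197, limma) and 1.51 ± 0.34 (adjusted p = 0.0413).

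The DRAM1 probe likewise entered the test only through irradiated groups, and its calls were fragile. After 7.4 Gy the call held in 1 of the 8 fits that left out 1 array, the one without 7.4-Gy day 4 replicate 3, and the other fits gave adjusted p = 0.0702 to 0.0978 (limma). After 6.7 Gy it was lost without control replicate 1 (0.0556), control replicate 3 (0.0502) or 6.7-Gy day 4 replicate 3 (0.0542). The 7.4-Gy call was also lost with slide as a fixed block (change 1.70, adjusted p = 0.0824, limma) and with scan day as a block (1.64, 0.0749). With all arrays in the fit it was lost too (1.51, 0.0639). With the common floor the changes were 0.20 and 0.00.

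The sestrins are inhibitors of the growth kinase complex mTORC1 that p53 can switch on. SESN1 had changes of 0.76 ± 0.19 (adjusted p = 0.0636, limma) and 0.89 ± 0.18 (adjusted p = 0.0318), and its day 4 arrays did not overlap the controls after either dose, but it stayed under 2-fold. SESN2 gave -0.41 ± 0.19 and -0.26 ± 0.19. TP53I3, a quinone oxidoreductase, lay below all controls on day 4 after both doses, at -0.81 ± 0.21 and -0.61 ± 0.22 (adjusted p = 0.07 and 0.127). FDXR, the mitochondrial ferredoxin reductase, gave 0.14 and -0.15, and TP53INP1, a cofactor of p53 phosphorylation, gave -0.28 and -0.31. A dimmer TP53INP1 probe gave 0.43 and 0.55 and was not called either.

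Both remaining members rose on day 4. ZMAT3 encodes a zinc finger protein that binds RNA, and its probe was dim, with control levels of -4.68, -4.30, -4.54 and -5.17, the last not above background. On day 4 after 6.7 Gy it read -2.38, -2.20, -2.26 and -2.65. After 7.4 Gy it read -2.24, -2.42, -2.55 and -2.81, of which replicate 3 was not above background. The control and day 4 arrays did not overlap, and the changes were 2.30 ± 0.20 (adjusted p = 0.00233, limma) and 2.17 ± 0.21 (adjusted p = 0.0036). These values rest on signals near background, from a probe that entered the test only through irradiated groups. Every ZMAT3 level of the control and day 4 arrays lay under the common floor, with which the change was 0.00.

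RPS27L encodes a ribosomal protein closely related to RPS27, so signal from RPS27 cannot be told apart with certainty. Its control levels were 3.63, 3.72, 3.22 and 3.50. They compared with 4.86, 4.42, 4.79 and 4.07 on day 4 after 6.7 Gy and 4.86, 4.53, 4.74 and 4.28 after 7.4 Gy. All 8 arrays were above the controls, and the changes of 1.01 ± 0.21 (adjusted p = 0.0355, limma) and 1.08 ± 0.18 (adjusted p = 0.0173) were just past 2-fold. The 6.7-Gy call held in 1 of 8 fits with 1 array left out, the one without 6.7-Gy day 4 replicate 4 (change 1.17). The others gave adjusted p = 0.0627 to 0.0916. The 7.4-Gy call was lost without control replicate 3 (change 0.98) or 7.4-Gy day 4 replicate 1 (change 1.00, just under 2-fold).

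**Figure D3:**
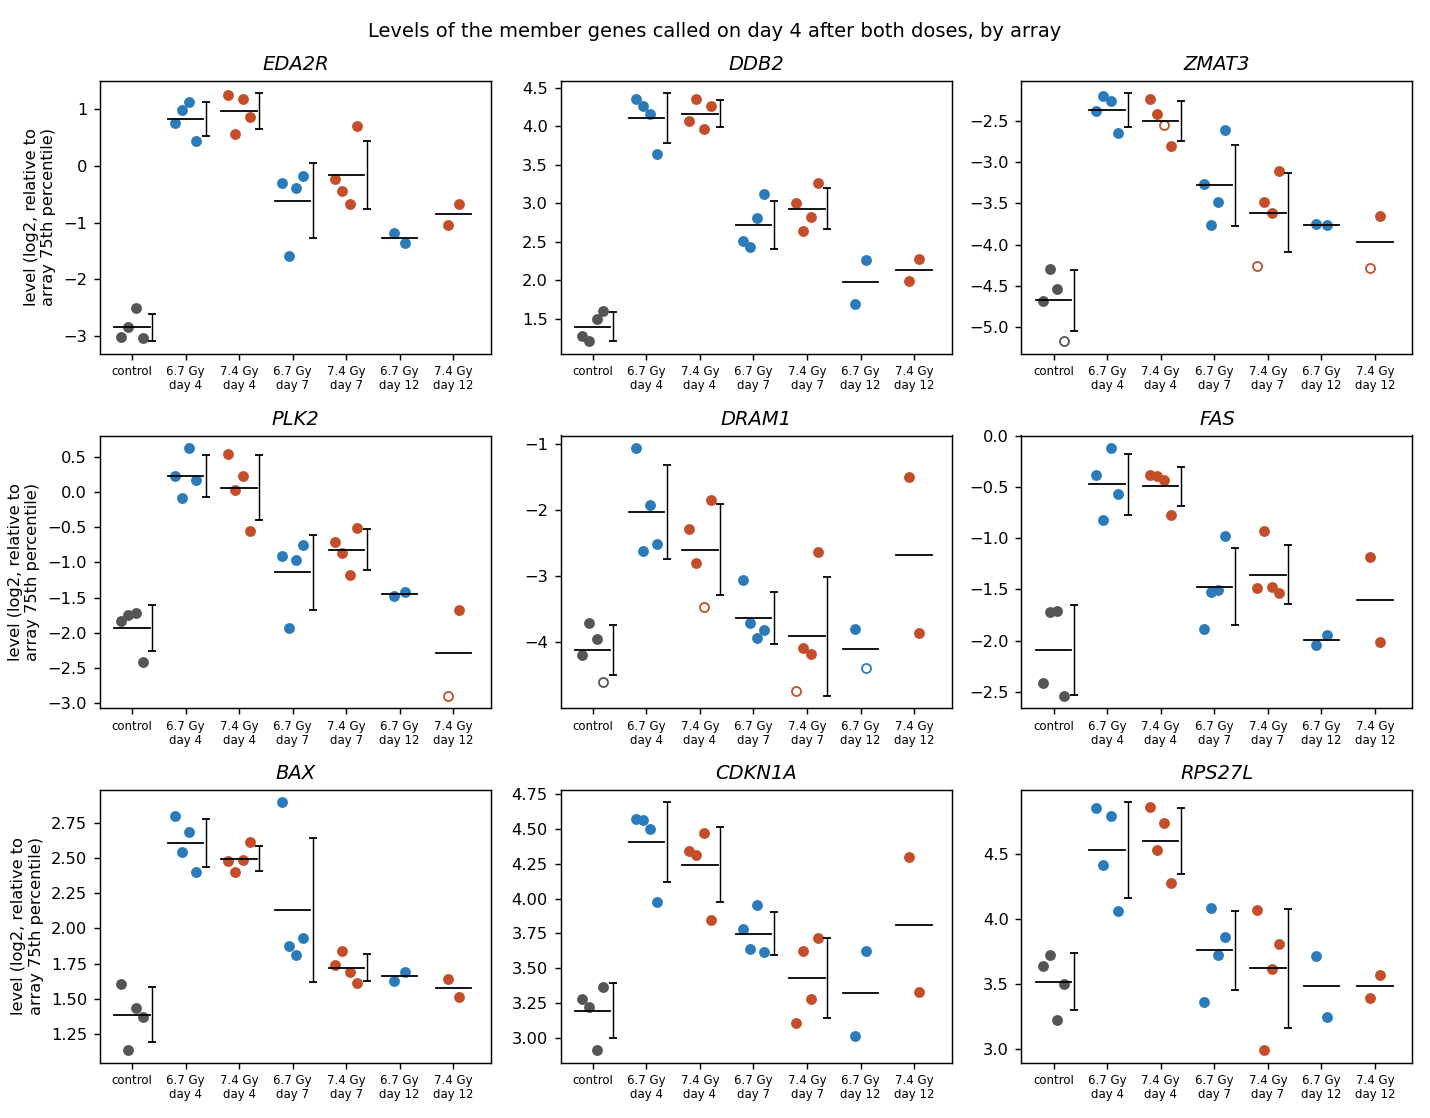
Levels (log2, relative to the array's 75th percentile) of the 9 member genes called on day 4 after both doses, in every array of the 7 groups. Points are arrays (open where not above background), horizontal lines are group means and bars are SD in groups of 4. All 8 day 4 arrays lie above all 4 controls for each gene, and the later arrays of DDB2 and FAS all lie below those of day 4. For the other 7 genes at least 1 later array reaches the day 4 range, as does EDA2R in 7.4-Gy day 7 replicate 4 (0.71), and BAX in 6.7-Gy day 7 replicate 1 (2.90) exceeds it.

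Members whose arrays all lay above the controls, the 9 called genes included, were 10 of 27 after 6.7 Gy (7.38% of all symbols) and 12 after 7.4 Gy (8.43%). The others were SESN1 after both doses and PPM1D and PMAIP1 after 7.4 Gy. Below the controls there was 1 member after 6.7 Gy (8.05%), TP53I3, and after 7.4 Gy there were 2 (10.4%), TP53I3 and APAF1. Slides were shared by groups, so the day 4 change could also be read within the 4 slides that held a control and a day 4 array. Within slides it ran from 3.28 to 4.15 for EDA2R, from 2.43 to 2.88 for DDB2, from 1.91 to 2.46 for PLK2, from 1.65 to 2.75 for ZMAT3, and from 1.20 to 2.27 for DRAM1. The lower changes ran from 1.16 to 2.30 for FAS, from 1.03 to 1.27 for BAX, from 0.76 to 1.43 for CDKN1A and from 0.34 to 1.64 for RPS27L. Since all 8 day 4 arrays lay above all controls for these genes, the sign of these values was given, and their sizes are a description.

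Markers of some cell types moved on day 4 beside these genes. Of 11 absorptive enterocyte markers tested, 3 fell after 6.7 Gy (FABP1 -1.56, RBP2 -1.50, VIL1 -1.58) and 2 after 7.4 Gy (FABP1 -1.23, RBP2 -1.44). Their summed level was 9.55 to 9.91 in the controls, 8.88 to 9.17 after 6.7 Gy and 8.79 to 9.32 after 7.4 Gy. A summed level is log2 of the sum of the unlogged levels of a list, so it mostly follows the brightest probes. The summed level of 7 crypt base markers was 1.05 to 1.46 in the controls, against 1.84 to 2.64 and 2.20 to 2.50, with OLFM4 (3.40) and CD44 (1.26) called after 7.4 Gy. Among 6 fibroblast markers 4 rose after 7.4 Gy (COL1A2 at 1.14, COL3A1, DCN and LUM), and their summed level was 5.31 to 6.22 in the controls, 6.46 to 6.64 after 6.7 Gy and 6.67 to 7.55 after 7.4 Gy. The macrophage and monocyte markers, 5 in all, had summed levels of 5.16 to 5.40, 5.28 to 6.18 and 5.77 to 6.11 in the same order, with CD14 called after 7.4 Gy (1.25). Of 5 enteroendocrine markers, GIP, the glucose-dependent insulinotropic peptide of K cells, fell after both doses (-2.21 and -2.78), and the summed level was 5.23 to 5.60, 5.06 to 5.64 and 5.05 to 6.10. The summed level of 3 erythroid markers was 7.22 to 8.01, 6.80 to 7.44 and 6.68 to 7.21. No tested goblet, Paneth, B and plasma, T and NK, neutrophil, smooth muscle or endothelial marker was called on day 4 after either dose. Of all symbols, 1.4% and 2% were called up and 0.861% and 0.954% down, with the lower dose first. The part of these shifts in the change of the p53 targets was not tested.

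On day 7 fewer members were called. After 6.7 Gy limma called 0 (0.0507% of symbols), and the methods' t-test called 0. Without adjustment, 4 members (EDA2R, DDB2, ZMAT3 and PMAIP1) had p under 0.05 and a 2-fold change, as did 1.76% of symbols. With all 24 arrays sharing 1 estimate of the spread, 3 of them (EDA2R, DDB2 and ZMAT3) were called. The same 3 were called with slide as a random block, and all 4 with slide as a fixed block. The share of all symbols called in these other fits was not counted. After 7.4 Gy, 2 members were called, both up, EDA2R and DDB2 (0.304% of symbols; 0.135% up), whereas the methods' t-test called 0 (adjusted p = 0.0653 and 0.0521). EDA2R read -0.29, -1.59, -0.38 and -0.18 on day 7 after the lower dose, and -0.24, -0.44, -0.66 and 0.71 after the higher. All 8 arrays were above the controls, and all but 7.4-Gy replicate 4 were below every day 4 array. The change was 2.24 ± 0.31 (4.73-fold, adjusted p = 0.0526, limma) and 2.70 ± 0.29 (6.48-fold, adjusted p = 0.0142).

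DDB2 on day 7 was at 2.51, 2.43, 2.81 and 3.12 after 6.7 Gy and at 3.00, 2.64, 2.81 and 3.26 after 7.4 Gy. No day 7 array overlapped the controls or day 4. The change was 1.32 ± 0.19 (2.5-fold, adjusted p = 0.0526, limma) and 1.53 ± 0.18 (2.89-fold, adjusted p = 0.02). The 7.4-Gy calls of day 7 depended on single arrays: EDA2R was lost without control replicate 1 (0.0647), 2 (0.0779) or 4 (0.0521) or without 7.4-Gy day 7 replicate 2 (0.0501), and with the common floor (change 1.70, adjusted p = 0.0746). DDB2 was lost in all fits that left out 1 array (adjusted p = 0.0501 to 0.0906) except the one without 7.4-Gy day 7 replicate 3.

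The other genes called on day 4 had smaller changes on day 7. After 6.7 Gy they were 1.39 for ZMAT3, 0.79 for PLK2, 0.74 for BAX, 0.62 for FAS, 0.55 for CDKN1A, 0.48 for DRAM1 and 0.24 for RPS27L. After 7.4 Gy they were 1.06, 1.11, 0.33, 0.74, 0.24, 0.20 and 0.10 in the same order, and none passed the test at either dose. Of 26 alternatives after 7.4 Gy, 4 called ZMAT3 and 3 called PLK2. BAX after 6.7 Gy was 2.90 in replicate 1 and 1.81 to 1.93 in the other arrays of its group. Members that lay wholly above the controls were 8 after 6.7 Gy (4.21% of symbols) and 9 after 7.4 Gy (6.26%). CCNG1 and SIVA1, a mediator of apoptosis, were among them after both doses, with changes of 0.47 and 0.56 for CCNG1 and of 0.29 and 0.37 for SIVA1 that did not pass the test. PLK3 (-0.59) and PERP (-0.33) lay below the controls after 7.4 Gy (6.03% of symbols did), and no member did after 6.7 Gy (3.56%).

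On day 12 no member was called after 6.7 Gy (0.0169% of symbols) or 7.4 Gy (0% of symbols) with limma. Without adjustment, 3 members had p under 0.05 and a 2-fold change after 6.7 Gy (EDA2R 1.58, PMAIP1 1.91 and TP53I3 -1.05; 1.79% of symbols) and 1 did after 7.4 Gy (EDA2R 2.00; 2.58%). The methods' t-test called 0 in each. EDA2R read -1.18 and -1.36 after 6.7 Gy and -1.03 and -0.67 after 7.4 Gy, all above the highest control at -2.51. DDB2 read 1.70 and 2.26, and 2.00 and 2.28, against a highest control of 1.61. Members above all controls numbered 7 after 6.7 Gy (10.1% of symbols) and 5 after 7.4 Gy (8.67%), shares of the 27 that were 25.9% and 18.5%. Below all controls were 3 after 6.7 Gy (PLK3, FDXR and TP53I3; 8.25% of symbols) and 2 after 7.4 Gy (PLK3 and TP53I3; 10.1%).

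The 2 arrays of the 7.4-Gy day 12 group disagreed for several members. DRAM1 was -1.51 in replicate 1 and -3.86 in replicate 2, CDKN1A was 4.30 and 3.33, and FAS was -1.19 and -2.02. PLK2 went the other way, with -2.90 in replicate 1, not above background, and -1.68 in replicate 2. Without replicate 2, EDA2R and DRAM1 were called, with the lone array assumed to vary like the controls.

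**Figure D4:**
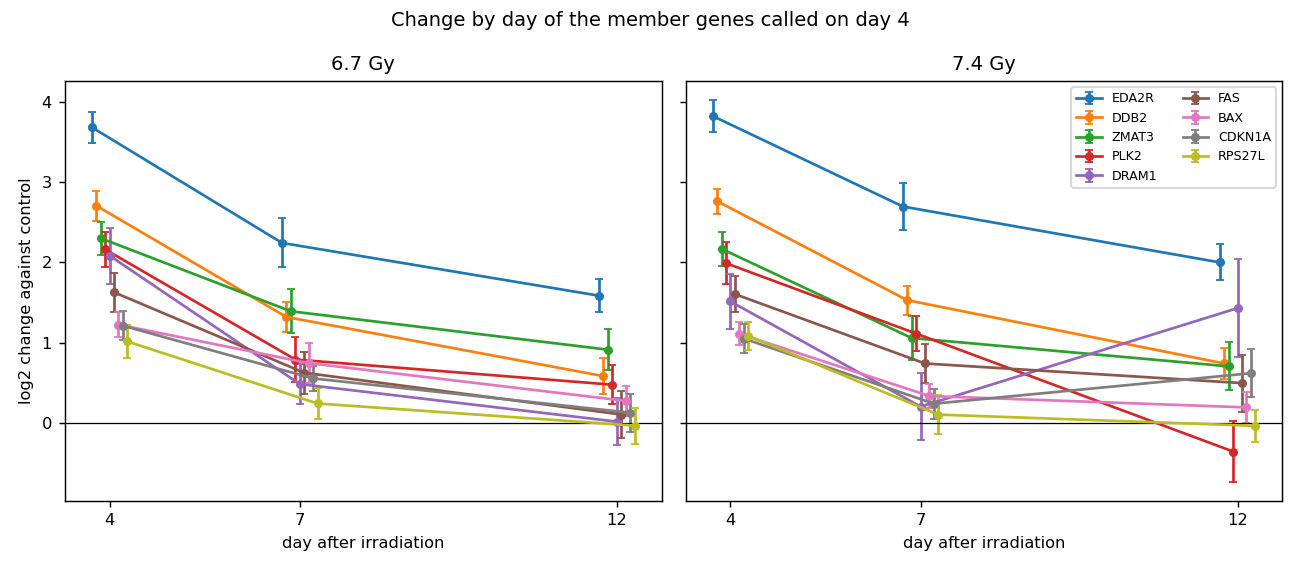
Log2 change against control on days 4, 7 and 12 for the 9 genes called on day 4, after 6.7 Gy (left) and 7.4 Gy (right). Points are mean changes, bars are SE, and points are shifted sideways for clarity. EDA2R is the highest line at every time. After 7.4 Gy, DRAM1 and CDKN1A have higher means on day 12 than on day 7, from 2 arrays that read -1.51 and -3.86 for DRAM1 and 4.30 and 3.33 for CDKN1A.

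The fall from day 4 was tested with the doses averaged in 1 model of all 24 arrays. Day 4 arrays shared no slide position with day 7 or day 12 arrays, so in this test day and position cannot be told apart. Between day 4 and day 7, 5 members fell (1.16% of symbols) and none rose (0.92%), against 2.09% of symbols called in all. The changes were -1.46 ± 0.34 for DRAM1, -1.31 ± 0.14 for DDB2, -1.28 ± 0.21 for EDA2R, -1.12 ± 0.20 for PLK2 and -1.01 ± 0.18 for ZMAT3. DRAM1 and ZMAT3 entered the test only through irradiated groups. With only probes detected on all arrays, DRAM1, ZMAT3 and PLK2 were not tested, and the calls were DDB2 and EDA2R. Between day 4 and day 12, 6 members fell (2.47% of symbols down, 1.23% up and 3.71% in all): DDB2 by 2.07, PLK2 by 2.02, EDA2R by 1.96, ZMAT3 by 1.43, FAS by 1.32 and RPS27L by 1.09. These contrasts use the same day 4 arrays as the comparison with control, so genes that stood out by a high day 4 reading are more likely to show a fall. Some markers of other cell types moved in the same contrasts. Of 6 fibroblast markers COL1A2 (-1.03 and -1.36) and COL3A1 (-1.13 and -1.37) fell by day 7 and by day 12. By day 12, KDR (-1.14) and VWF (-1.32) of 6 endothelial markers and CD14 (-1.01) of 5 macrophage and monocyte markers fell. GIP (1.82) and NEUROD1 (1.36) of 5 enteroendocrine markers and AGR2 (1.16) of 5 goblet cell markers rose. The other tested markers of these lists were not called. Their part in the fall of the members was not tested.

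From day 7 to day 12 no member was called (0.101% of symbols; limma), and 0 passed the same limits without adjustment (1.22% of symbols) or in the methods' t-test. DDB2 (-0.76 ± 0.17, adjusted p = 0.0625) and PLK2 (-0.89 ± 0.25, adjusted p = 0.134) had the largest differences. Of the 9 genes called on day 4, between 6 and 9 were above the highest control in any day 7 array and between 4 and 7 in any day 12 array. Over all 11846 symbols, 20.0% to 28.1% lay above the highest control in an irradiated array. The 9 genes were chosen because day 4 exceeded these same controls, so low control readings favour them in later arrays too. ZMAT3 and DRAM1, which are among them, passed the filter only through irradiated groups. These counts are therefore a description.

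No member was called between 7.4 Gy and 6.7 Gy on day 4, day 7 or day 12 (0% of symbols each time; limma), and the methods' t-test called 0. Without adjustment the same limits took 0 members on day 4 (0.211% of symbols), 0 on day 7 (0.65%) and 1 on day 12 (1.87%), PMAIP1 at -1.15. On day 4 the difference was 0.14 for EDA2R (95% interval -0.47 to 0.75), 0.06 for DDB2 (-0.34 to 0.46), -0.16 for CDKN1A (-0.60 to 0.28), -0.11 for BAX (-0.49 to 0.27) and -0.57 for DRAM1 (-1.58 to 0.44). For EDA2R, DDB2, CDKN1A and BAX these intervals hold no 2-fold difference between the doses, whereas for DRAM1 they do.

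The rest of the pathway was read from 3 further lists. Of 18 tested genes of a list of p53 regulators (kinases, acetylases, ligases and others), none was called by limma against control in any of the 6 groups. Their median day 4 change was 0.02 and 0.08. Of 27 other tested p53 targets, 2 rose on day 4 after 6.7 Gy, where 1.4% of all symbols did. These were GDF15, a stress-induced cytokine (4.00, adjusted p = 0.000721), and TNFRSF10A, a receptor for the death ligand TRAIL (1.09, adjusted p = 0.0449). After 7.4 Gy, GDF15 (3.86, adjusted p = 0.000494) and THBS1, an inhibitor of angiogenesis (1.26, adjusted p = 0.0376), rose (2% of all symbols). CES2, a carboxylesterase of enterocytes (-1.04, adjusted p = 0.0193), and TRIM22, an interferon-induced ubiquitin ligase (-2.28, adjusted p = 0.0257), fell (0.954% of all symbols). The median change of this list was 0.36 and 0.31 on day 4 and between -0.16 and 0.03 on the later days, and none of its genes was called against control later.

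The third list held cell cycle genes that are known to be low when p53 is active, 28 of them tested. On day 4 none fell (0.861% and 0.954% of all symbols). TYMS, the thymidylate synthase of DNA synthesis, rose by 1.83 and 1.89 (adjusted p = 0.0143 and 0.00393, limma; 1.4% and 2% of all symbols rose). On day 7 after 7.4 Gy, 3 rose (0.135% of all symbols): AURKA, a mitotic kinase (1.25), CDC25C, the phosphatase that starts mitosis (1.10), and UBE2C, a ubiquitin carrier of mitotic exit (1.53). The median change of the list was 0.41 and 0.12 on day 4, 0.88 and 0.87 on day 7, and 0.18 and 0.63 on day 12, with the lower dose first. Its highest median was that of day 7.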

How the data were processed

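The authors hybridized Cy3-labelled RNA to 24 1-color Agilent rhesus arrays on 6 slides. Per the file headers, they extracted spot intensity with Agilent Feature Extraction 11.0.1.1. They also deposited log2 normalized values; these could be rebuilt within 0.000222 as log2 signal minus the 75th percentile of the array and the median of each entry. Symbols came from that table. Here, control spots were dropped, spots of a probe were averaged, and log2 processed signals were set against the 75th percentile of each array (505 to 1069). Testing was limited to the 28168 of 43603 probes that all arrays of some group had above background. ZMAT3, DRAM1, BTG2, PMAIP1 and a dimmer probe each of MDM2, MDM4 and TP53INP1 passed only through irradiated groups, since 1 control array was not above background for them, so their tests are open to selection by this filter. No value was saturated and no arrays were identical. Comparisons with control were fitted in R 4.3.3 with lmFit and eBayes of limma 3.58.1, each on its 2 groups alone; comparisons of doses and of days used 1 model of the 7 groups. The Benjamini-Hochberg adjustment ran over all tested probes. Called genes, up to 16, and MDM2 were named with every array's value, other members by means and changes. The members and lists were chosen with earlier results of these data known. Per the methods, 24 animals were used and RNA was not pooled, while the labels number the arrays within each group without naming animals. Precision is limited by the number of arrays. Alternatives covered scaling, background (normexp, offset 50, on the median signals, since mean signals were not used here), filters, floor, samples in the fit, slide, position, scan day, replicate number, variance model, test, probe choice, fold limit and leaving out arrays. The functions were tested on simulated data. No sequences and no genome coordinates were used.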

Additional observations from a re-analysis of the deposited data

Results flagged for a closer look

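In groups of 4 arrays, 1 array stood apart from the other 3 in 9 of 135 combinations of member gene and group, where chance gives about 1 in 20. The array's level is followed by the range of the other 3. EDA2R was -1.59 in 6.7-Gy day 7 replicate 2 against -0.38 to -0.18. CDKN1A was 3.98 in 6.7-Gy day 4 replicate 4 against 4.50 to 4.57. MDM4 was -0.89 in 6.7-Gy day 4 replicate 2 against -0.26 to -0.14. FAS was -0.77 in 7.4-Gy day 4 replicate 4 against -0.43 to -0.38, and -0.93 in 7.4-Gy day 7 replicate 2 against -1.53 to -1.48. In control replicate 4, PLK2 was -2.42 against -1.84 to -1.72 and BTG2 was -3.86 against -2.89 to -2.79. CCNG1 was 0.29 in 7.4-Gy day 7 replicate 4 against 0.49 to 0.51. BAX was 2.90 in 6.7-Gy day 7 replicate 1 against 1.81 to 1.93.

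The change against control differed between days in a test of the difference itself (limma, doses averaged). From day 4 to day 7 it differed by -1.28 for EDA2R, -1.31 for DDB2, -1.01 for ZMAT3, -1.12 for PLK2 and -1.46 for DRAM1. ZMAT3 and DRAM1 were tested only through irradiated groups. With only probes detected on all arrays, ZMAT3, DRAM1 and PLK2 were not tested, and EDA2R and DDB2 were called. From day 4 to day 12 it differed by -1.96 for EDA2R, -2.07 for DDB2, -1.32 for FAS, -1.43 for ZMAT3, -2.02 for PLK2 and -1.09 for RPS27L.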

How the results depend on the processing

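Counts of members called on day 4 stayed within 1.5 times of 9 in 25 of 27 alternatives after 6.7 Gy and in 23 of 27 after 7.4 Gy. EDA2R and DDB2 were called in every one of these alternatives. With probes detected on all arrays, 6 were called after each dose. For the calls against control, no alternative turned the direction of a change. With no filter on dim probes the counts were 5 after 6.7 Gy and 4 after 7.4 Gy on day 4, and 0 after 7.4 Gy on day 7. With position on the slide as a block, 7.4 Gy on day 4 gave 2, with the changes of the lost 7 at 1.23 to 2.33. Position could not be fitted for days 7 and 12 against control or against day 4, since those groups share no position. Without the arrays of slides 4 and 5, chosen after seeing the data because they detected the fewest probes, 7.4 Gy gave 2 on day 4, from 3 controls and 2 irradiated arrays, and 0 on day 7. Without slide 5, also chosen then, 7.4 Gy on day 7 gave 1.

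On day 7 after 6.7 Gy the count of 0 became 1 with the percentile over probes detected on all arrays and with normexp, 2 with probes detected on all arrays and with a trended robust variance, 3 with all arrays in the fit, with scan day as a block and with slide as a random block, and 4 with slide as a fixed block. These calls were EDA2R, DDB2, ZMAT3 and PMAIP1. After 7.4 Gy the count of 2 became 4 with all arrays in the fit and with slide as a random block, 1 with the common floor, and 0 with the methods' t-test. On day 12 after 7.4 Gy probes detected on all arrays gave 1. From day 4 to day 7 normexp and probes detected on all arrays gave 2, the common floor 3 and no fold limit 12 (18.3% of symbols). From day 4 to day 12 no fold limit gave 10 (14.8% of symbols). For each of these the cause was not tested, and for the fits given without a share of symbols that share was not counted.

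Leaving out 1 array gave 7 to 9 (6.7 Gy) and 6 to 8 (7.4 Gy) on day 4, 0 to 1 and 0 to 2 on day 7, 0 to 0 and 0 to 2 on day 12, 3 to 6 from day 4 to day 7, 5 to 8 from day 4 to day 12 and 0 to 1 from day 7 to day 12. Without 6.7-Gy day 7 replicate 2, EDA2R was called after 6.7 Gy on day 7 and 3 members (EDA2R, DDB2 and DRAM1) from day 4 to day 7, where ZMAT3 was also lost without 6.7-Gy day 4 replicate 2 or 3, 7.4-Gy day 4 replicate 1 or 2, 6.7-Gy day 7 replicate 3, 7.4-Gy day 7 replicate 1 or slide 5. Without 7.4-Gy day 12 replicate 2, PLK2 was called from day 7 to day 12, and EDA2R and DRAM1 on day 12 after 7.4 Gy. For 7.4 Gy on day 7 the count was 0 without control replicate 1, 2 or 4 or replicate 2 of that group, and 1 without control replicate 3 or replicate 1 or 4. Dose comparisons gave 0 throughout. With the replicate number as a block the counts were 4 and 5 on day 4 and 0 for 7.4 Gy on day 7. The deviations of same-numbered arrays had a median r of 0.017 over 62 pairs. It was -0.018 for arrays of different numbers and 0.14 for arrays of one slide. Of 24 arrays, 10 correlated best with an array of their own number. Some same-numbered arrays shared a slide, so number and slide are partly mixed. Among the brightest tested probes of the members, those of ZMAT3, DRAM1, PMAIP1 and BTG2 were above background on the fewest arrays, 19 or 20 of 24.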
